A study of Mus musculus with 5 samples.

Results

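The genes described here carry a protein from the proteasome to the loading of its peptides on MHC class I: the immunoproteasome subunit genes Psmb8, Psmb9 and Psmb10, the proteasome activator genes Psme1 and Psme2, the ubiquitin-like modifier gene Ubd, the peptide transporter genes Tap1 and Tap2, and the loading chaperone genes Tapbp and Tapbpl. Every probe set annotated to 1 of these 10 genes was taken. Of the 10 genes, 8 had at least 1 probe set annotated to that gene alone, 12 probe sets in all. A further probe set, 1417189_at, was annotated to both Psme2b and Psme2 and stands for neither gene alone. Psme1 was not analysed here. The 13 probe sets belong to a deposited table of 3373 probe sets, in which 2190 genes could be named.

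The cells were primary cultures of mesenchymal stem cells (MSC) from mouse bone marrow, stromal cells that can restrain T cell responses, grown in Mesencult medium. Co-cultured MSC, on 2 arrays, shared a transwell system for 48 h with purified T cells, 10 for each MSC, that antibodies to CD3 and CD28 had activated in vitro, so that soluble products and not the cells could pass between the chambers. MSC alone, on 3 arrays, were naive MSC. The labels call each array a biological repetition without saying whether separate animals or cultures stood behind it, and they give no strain, age or sex. The p-values below therefore rest on the spread between these arrays only.

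Values are log2 probe set summaries made by RMA, which gives no detection call, and all differences below are co-cultured MSC minus MSC alone on the log2 scale. In each of the 3373 probe sets the groups do not overlap, with a gap of at least 0.34 between them. By limma, with p-values adjusted over the table, 100% of the probe sets pass the threshold of 0.05, and 48.7% pass as higher in co-culture. The table therefore appears chosen on the contrast itself. Passing is no result about a member, and the values below describe the size and the pattern of the differences. The array medians were 7.50 and 7.42 in co-culture and between 7.61 and 7.64 in MSC alone. Of 16 marker genes of MSC and stroma 8 were in the table, 2 of them higher and 6 lower in co-culture. The higher ones were Pdgfra, by 3.77 ± 0.70, and Vcam1, by 2.91 ± 0.19 (SE), and the 6 lower ones differed by -3.94 to -0.86. None of the 17 T cell, 4 B cell, 5 endothelial or 7 class II loading genes was in it, so these cell types were not analysed here. Of 16 macrophage and dendritic cell genes 2 were, Mpeg1 and Ctss, and both were higher in co-culture: their mean level was 8.03 and 7.35 on the co-culture arrays, against 3.74, 4.24 and 4.03 in MSC alone replicates 1, 2 and 3. Macrophages and dendritic cells also express the immunoproteasome and the peptide transporter. The part of such cells in the differences below was not tested. In bulk RNA more cells of a type and more RNA per cell cannot be told apart.

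The proteasome is a barrel of stacked rings that cuts ubiquitin-tagged proteins into peptides. Under interferon, 3 of its catalytic subunits can be replaced during assembly by Psmb8, Psmb9 and Psmb10, which makes the immunoproteasome and changes which peptides are released. The activator PA28, built from the Psme1 and Psme2 proteins, caps the barrel and opens it. The TAP transporter, a heterodimer of Tap1 and Tap2, moves peptides from the cytosol into the endoplasmic reticulum, where tapasin (Tapbp) bridges it to empty class I molecules and the tapasin-related protein Tapbpl exchanges peptides away from it. The Ubd protein, also called FAT10, tags proteins for the proteasome without ubiquitin. These genes are known targets of interferon-gamma, and those of Ubd and the immunoproteasome also respond to tumour necrosis factor.

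All 13 member probe sets were higher in co-culture, beside the 48.7% of the table given above. At least 2-fold differences were seen in 12 of the 13, beside 27.5% of the table. At least 4-fold differences were seen in 9 of the 13, beside 7.62% of the table. The members were chosen with earlier results of these data known, and 4 of their genes have several probe sets. These shares therefore describe the members and are no test of them. Centring each array on its median moves the differences of all probe sets upward, since the medians of the co-culture arrays lay lower (by -0.16). At least 2-fold differences are then found in 1167 higher and 961 lower probe sets, against 926 higher and 1189 lower as deposited, and the members at least 2-fold and 4-fold higher are 12 and 10, beside 34.6% and 8.89% of the table. If the p-values are adjusted for 15 times the number of probe sets, 5 of the 13 pass as higher, beside 6.08% of the table. With each gene represented by its brightest probe set, the median difference over the 8 genes was 3.75, while it was -0.61 over all 2190 genes and 1.05 over the 1057 genes that were higher. The table holds no absolute difference below 0.467, and 1133 genes were lower. The -0.61 therefore mainly reflects which direction held more genes. The median of the 8 genes depends on which probe set represents a gene: it was 2.71 with the mean over a gene's probe sets and 2.49 with the probe set of smallest difference.

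**Figure D1:**
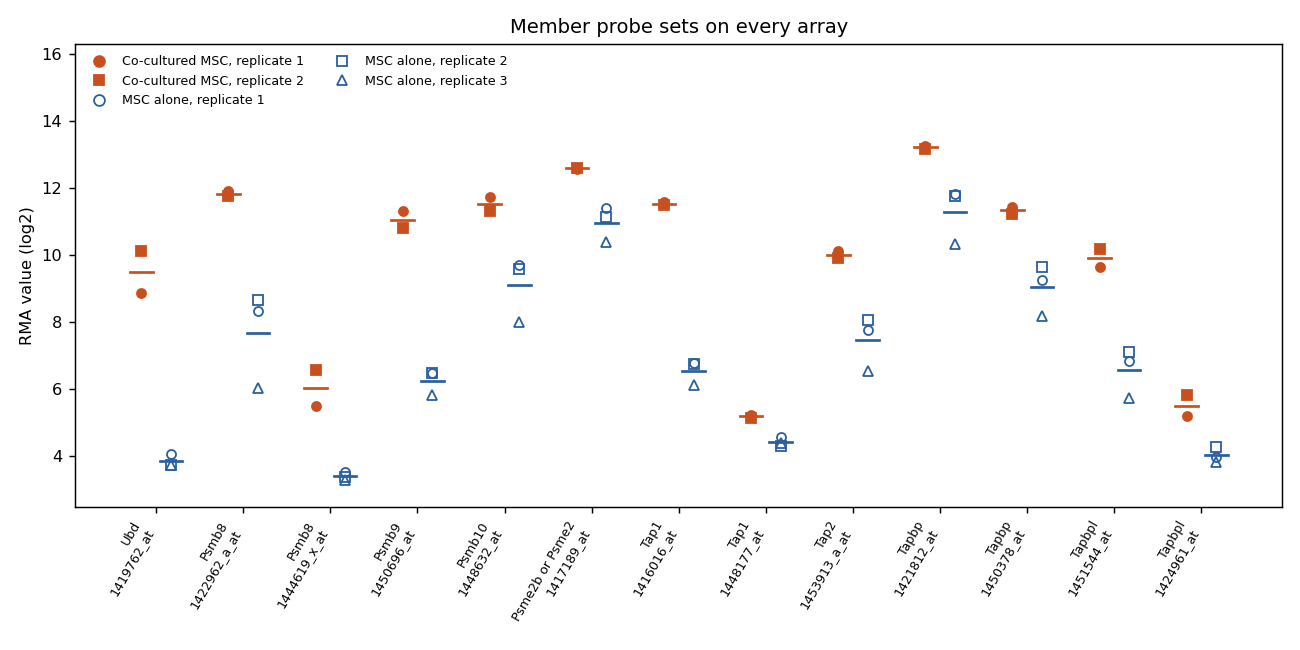
RMA values (log2) of the 13 member probe sets on every array, in path order. Filled orange points are co-cultured MSC (replicates 1 and 2), open blue points MSC alone (replicates 1, 2 and 3), and short lines are group means. In every probe set both orange points lie above the blue ones, and MSC alone replicate 3 (triangles) is the lowest array in 11 of the 13.

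Ubd, the FAT10 modifier gene, showed the largest difference of the members. Its values were 8.87 and 10.12 in co-culture replicates 1 and 2, against 4.06, 3.73 and 3.75 in MSC alone replicates 1, 2 and 3. The arrays of MSC alone lay close together at the low end of the scale, and co-culture replicate 2 was the highest. The means were 9.49 ± 0.88 (SD, n = 2) in co-culture and 3.85 ± 0.19 (SD, n = 3) in MSC alone, a difference of 5.65 ± 0.38 (SE), or 50.1-fold, with an adjusted p of 0.00053 in limma. Without co-culture replicate 1 the difference was 6.27, and without co-culture replicate 2 it was 5.02. Because the values in MSC alone lie near the lowest of the table (2.62) and have no detection call, the fold is uncertain. The promoter window of Ubd is printed because it held a match to the consensus of NF-kB, the factor through which tumour necrosis factor acts. In the RefSeq sequence of GRCm38.p6 (chr17:37193642-37193941, plus strand, 250 bases before to 50 bases after the annotated start) the match, in capitals, lay 15 to 6 bases before the start:
Ubd: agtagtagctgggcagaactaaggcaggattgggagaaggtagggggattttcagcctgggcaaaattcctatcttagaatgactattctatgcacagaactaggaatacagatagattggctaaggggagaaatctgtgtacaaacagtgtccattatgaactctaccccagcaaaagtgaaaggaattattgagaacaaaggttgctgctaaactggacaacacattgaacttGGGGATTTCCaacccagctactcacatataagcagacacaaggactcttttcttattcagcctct
Such a match occurs on either strand in 4.51% of the 32851 promoter windows of this length in RefSeq.

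The 3 immunoproteasome subunit genes were all higher in co-culture. Psmb9, the subunit that takes the place of Psmb6, had values of 11.32 and 10.81 in co-culture, against 6.47, 6.50 and 5.82 in MSC alone. The lowest co-culture array stood 4.31 above the highest array of MSC alone. Psmb9 differed by 4.80 ± 0.29 (SE), or 27.8-fold (adjusted p 0.00037, limma).

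Psmb8, which takes the place of Psmb5, had values of 11.92 and 11.76 in co-culture in its brighter probe set (1422962_a_at), against 8.33, 8.66 and 6.04 in MSC alone. The co-culture arrays agreed closely, while MSC alone replicate 3 stood far below the other replicates. The difference was 4.16 ± 0.76 (SE), or 17.9-fold (adjusted p 0.0052, limma), and 3.35 without MSC alone replicate 3. The dimmer probe set of Psmb8 (1444619_x_at), of a type that can bind related transcripts, gave 5.49 and 6.57 in co-culture, against 3.54, 3.39 and 3.29 in MSC alone. Its difference was 2.62 ± 0.33 (SE), and here the co-culture arrays were farther apart than the arrays of MSC alone.

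Psmb10, also called MECL-1, which takes the place of Psmb7, had values of 11.75 and 11.31 in co-culture, against 9.70, 9.58 and 8.02 in MSC alone. The groups were 1.61 apart at their nearest arrays. The difference of 2.43 ± 0.53 (SE), or 5.4-fold (adjusted p 0.0067, limma), was the smallest of the 3 subunit genes. The change of Psmb10 was 2.37 smaller than that of Psmb9 and 1.74 smaller than that of Psmb8 (0.19 smaller with the dimmer probe set of Psmb8), a comparison chosen after the values were seen and not tested. The constitutive counterparts Psmb5, Psmb6 and Psmb7 were not analysed here.

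Psmb9, Tap1, Psmb8 and Tap2 are consecutive genes on chromosome 17 in RefSeq, in that order. Psmb9 and Tap1 run in opposite directions, and their annotated starts lie 226 bases apart. Their promoter windows of 300 bases share 275 bases, and the window of Tap1 is printed once for both. In the brighter probe set of Tap1 the difference (4.99) was near that of Psmb9 (4.80), while the dimmer one gave 0.76. Whether the shared bases bear on these differences was not tested. The printed window lies at chr17:34187306-34187605 of GRCm38.p6 (plus strand, RefSeq). Its capitals mark the 227 bases from the start of Psmb9 to the start of Tap1, both included:
Psmb9 and Tap1: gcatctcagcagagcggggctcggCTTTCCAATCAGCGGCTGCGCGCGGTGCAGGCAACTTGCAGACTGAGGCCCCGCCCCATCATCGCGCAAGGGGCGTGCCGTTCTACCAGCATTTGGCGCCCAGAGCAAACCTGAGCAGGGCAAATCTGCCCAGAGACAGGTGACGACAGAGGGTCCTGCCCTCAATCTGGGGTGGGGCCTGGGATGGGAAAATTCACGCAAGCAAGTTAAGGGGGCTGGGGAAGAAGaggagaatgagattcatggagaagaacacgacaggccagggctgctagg
Neither window of the pair held the ISRE core GAAANNGAAA of interferon response elements, the GAS motif TTCNNNGAA of interferon-gamma activated sites, or the NF-kB consensus, on either strand. The window of Psmb8 (chr17:34197945-34198244, plus strand) held 1 GAS match, in capitals, 97 to 89 bases before the start:
Psmb8: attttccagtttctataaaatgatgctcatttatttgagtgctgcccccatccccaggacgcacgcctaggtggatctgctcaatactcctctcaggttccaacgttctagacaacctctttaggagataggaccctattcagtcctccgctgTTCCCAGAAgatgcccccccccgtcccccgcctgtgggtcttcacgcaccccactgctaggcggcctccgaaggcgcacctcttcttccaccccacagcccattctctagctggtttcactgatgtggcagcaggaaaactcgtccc
GAS occurs in 8.3% and the ISRE core in 3.44% of the 32851 windows. No match was found in the windows of Psmb10, Psme2 and Tapbp. The window of Psme1 held 1 ISRE core. No matches overlapped. These matches are descriptions of the sequence, and windows of Tap2 and Tapbpl were not used here.

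The proteasome activator was read by the probe set 1417189_at, annotated to Psme2 (PA28 beta) and to its near copy Psme2b. It had values of 12.59 and 12.61 in co-culture, against 11.39, 11.14 and 10.38 in MSC alone. The co-culture arrays were almost equal, and MSC alone replicate 3 was again the lowest. The difference was 1.63 ± 0.32 (SE), or 3.1-fold (adjusted p 0.0058, limma). Which of the copies it reflects cannot be told apart.

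The transporter genes differed unequally. Tap1, in its brighter probe set (1416016_at), had values of 11.58 and 11.50 in co-culture, against 6.77, 6.74 and 6.13 in MSC alone. The co-culture arrays were tight (SD 0.06), while those of MSC alone spread more (SD 0.37), with replicate 3 lowest. The groups lay 4.72 apart at their nearest arrays. The difference was 4.99 ± 0.25 (SE), or 31.9-fold (adjusted p 0.00023, limma), the smallest adjusted p among the members. The dimmer probe set of Tap1 (1448177_at) had values of 5.25 and 5.13 in co-culture, against 4.59, 4.32 and 4.39 in MSC alone. It differed by 0.76 ± 0.18 (SE), the smallest difference of all 13 probe sets, although the annotation derives both from the same source sequence. All of its values lay in the low range, where RMA compresses differences, and the cause of the disagreement was not tested.

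Tap2, the partner of Tap1 in the transporter, had values of 10.12 and 9.91 in co-culture, against 7.78, 8.06 and 6.55 in MSC alone. The groups were 1.85 apart at their nearest arrays, with MSC alone replicate 3 lowest. The difference was 2.55 ± 0.45 (SE), or 5.9-fold (adjusted p 0.0049, limma). Within each array, the value of the brighter probe set of Tap1 minus that of Tap2 was 1.46 and 1.58 in co-culture, against -1.01, -1.32 and -0.43 in MSC alone. The change of the brighter probe set of Tap1 exceeded that of Tap2 by 2.44, or by 2.69 without MSC alone replicate 3, and with the dimmer probe set of Tap1 the direction turned (-1.79). This pairing was chosen after the values were seen and was not tested.

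Tapbp, the tapasin gene, had the smallest difference of the 8 genes when each was represented by its brightest probe set. In the brighter probe set of Tapbp (1421812_at) the values were 13.26 and 13.18 in co-culture, against 11.82, 11.77 and 10.33 in MSC alone. Its co-culture arrays were within 0.08 of each other, and MSC alone replicate 3 stood apart below. The difference was 1.92 ± 0.47 (SE), or 3.8-fold (adjusted p 0.0086, limma). It was the only member probe set to lose its call without moderation of the spread, where limma's adjusted p was 0.0563. It was 0.128 when adjusted for 15 times the number of probe sets. Over the remaining alternatives the adjusted p lay between 0.0016 and 0.0383, the highest without co-culture replicate 2. The other probe set of Tapbp (1450378_at) had values of 11.43 and 11.24 in co-culture, against 9.27, 9.66 and 8.19 in MSC alone. Its difference of 2.30 ± 0.43 (SE) was close to that of the first, so the 2 probe sets of Tapbp were alike in the size of the difference.

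Tapbpl, the gene of the tapasin-related peptide exchanger, had values of 9.64 and 10.19 in co-culture in its brighter probe set (1451544_at), against 6.85, 7.11 and 5.76 in MSC alone. Here co-culture replicate 2 was the higher, as for Ubd. The difference was 3.35 ± 0.43 (SE), or 10.2-fold (adjusted p 0.0027, limma). The dimmer probe set (1424961_at) had values of 5.20 and 5.83 in co-culture, against 3.99, 4.28 and 3.84 in MSC alone, and differed by 1.48 ± 0.26 (SE). The change of Tapbpl set against that of its relative Tapbp, a pairing chosen after the values were seen and not tested, depended on the probe set. With the brighter probe set of Tapbpl it was larger by 1.43 than in the brighter and by 1.05 than in the dimmer probe set of Tapbp, and with the dimmer one it turned, to -0.44 and -0.82.

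**Figure D2:**
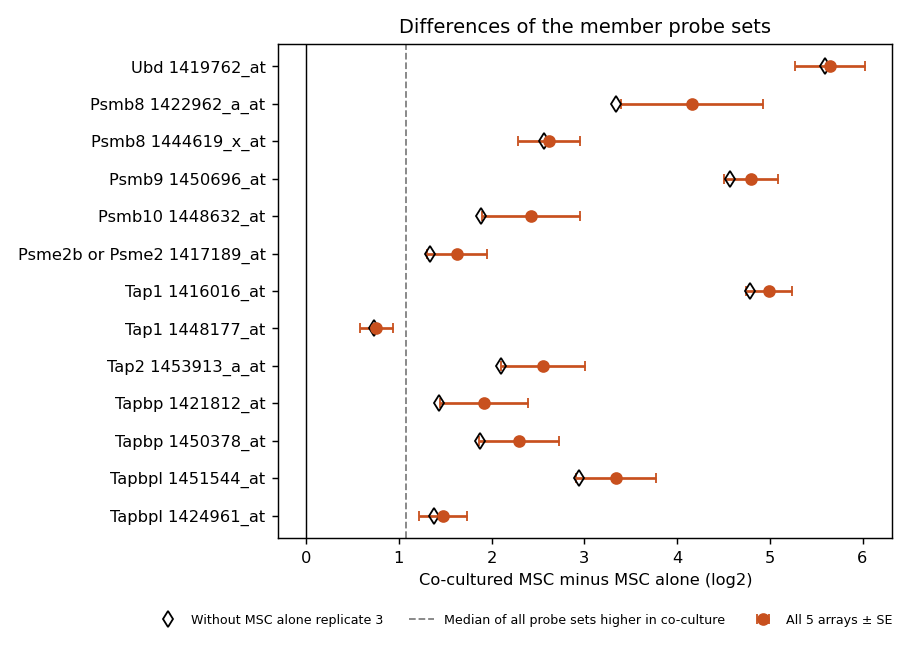
Differences between co-cultured MSC and MSC alone (log2) for the 13 member probe sets, with bars for limma's moderated SE over all 5 arrays. Diamonds give the difference without MSC alone replicate 3, which is smaller in all 13, and the dashed line is the median of all probe sets higher in co-culture (1.07). All members but the dimmer probe set of Tap1 (0.76) lie to the right of that line.

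With each gene represented by its brightest probe set, the genes ran, in the order of their differences, Ubd (5.65), Tap1 (4.99), Psmb9 (4.80), Psmb8 (4.16), Tapbpl (3.35), Tap2 (2.55), Psmb10 (2.43) and Tapbp (1.92). The order depends on that choice, since the dimmer probe sets gave 0.76 for Tap1, below every gene in it, 2.62 for Psmb8 and 1.48 for Tapbpl. Each of the 7 pairs of neighbours was compared through the value of one gene minus that of the other within each array, by a two-sided exact permutation test over the 5 arrays, which cannot give a p below 0.1. The smallest exact p was 0.1 (adjusted over the pairs, 0.35), for Tapbpl over Tap2, whose changes differed by 0.79, and for Psmb10 over Tapbp, whose changes differed by 0.51. In these pairs the within-array values of the groups did not overlap. For Psmb8 over Tapbpl (0.82, exact p = 0.4) they almost touched, with a lowest value of 1.563 in co-culture and a highest of 1.555 in MSC alone. Tap1 and Psmb9 differed by 0.19 in their change (exact p = 0.3), and Ubd and Tap1 by 0.65 (exact p = 0.5). Psmb9 and Psmb8 differed by 0.64 in their change (exact p = 0.5), and Tap2 and Psmb10 by 0.13 (exact p = 0.7). Since no pair could pass the threshold in this test, it does not settle which neighbours differ. The size of these gaps also depended on single arrays. For Psmb9 over Psmb8 the gap was 1.23 without MSC alone replicate 3, 0.26 without MSC alone replicate 2, and 0.42 without MSC alone replicate 1. For Psmb8 over Tapbpl it was 0.41 without MSC alone replicate 3 and 0.46 without co-culture replicate 1, and for Tapbpl over Tap2 it was 0.41 without co-culture replicate 2. For Psmb10 over Tapbp it was 0.33 without co-culture replicate 1. The sign turned for Ubd over Tap1 (-0.015) and for Tap1 over Psmb9 (-0.018) without co-culture replicate 2, and for Tap2 over Psmb10 (-0.017) without MSC alone replicate 1.

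Most members shared a low value on the same array of MSC alone. Replicate 3 was the lowest of the 3 arrays in 11 of the 13 member probe sets, beside 40.3% of all probe sets in the table and 50% of those higher in co-culture. Relative to the mean of replicates 1 and 2, replicate 3 differed by a median of -0.89 over the members, beside -0.02 over all probe sets and -0.10 over those higher in co-culture. Psmb8 was lowest in relation to the other replicates, by -2.45, followed by Psmb10 (-1.62), Tapbp (-1.47) and Tap2 (-1.37). Psmb9 (-0.67) and the brighter probe set of Tap1 (-0.63) differed less. For Ubd (-0.15) and the dimmer probe set of Tap1 (-0.06) replicate 3 was between the others. A low replicate 3 enlarges the difference between the groups, and without it the 13 differences were between 0.74 and 5.60 and the median over the 8 genes was 3.14. What set replicate 3 apart was not tested.

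**Figure D3:**
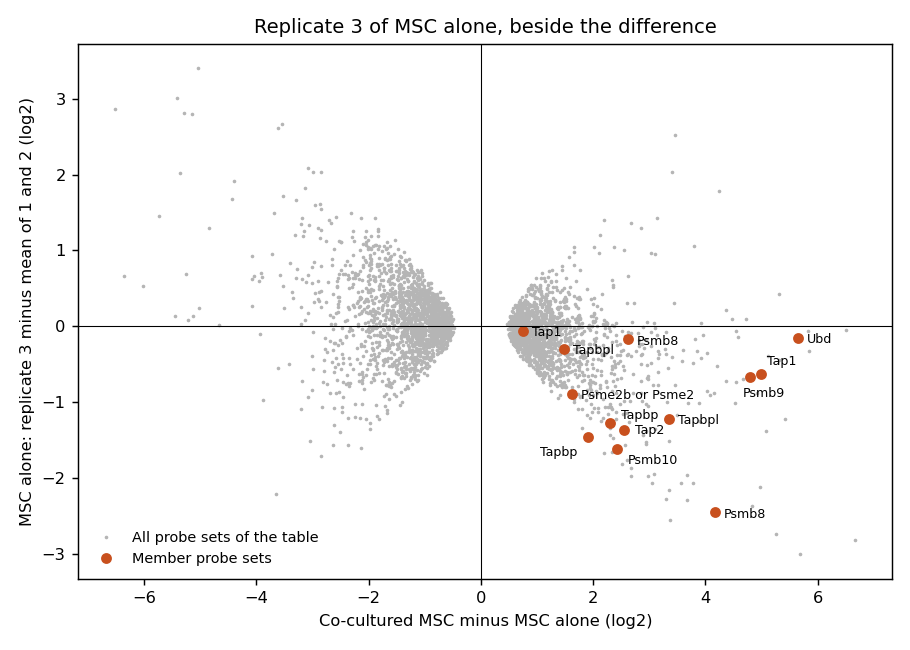
MSC alone replicate 3 minus the mean of replicates 1 and 2 (log2, vertical axis) against the difference between co-cultured MSC and MSC alone (log2, horizontal axis) for all 3373 probe sets (grey) and the 13 members (orange). The 2 axes share the MSC alone arrays, and the empty band around 0 on the horizontal axis is where the table holds no probe set. All 13 members lie below 0 on the vertical axis, from -0.06 for Tap1 to -2.45 for Psmb8.

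The co-culture arrays differed less for most members. The value of co-culture replicate 1 minus replicate 2 was within 0.51 of 0 in 9 of the 13 probe sets. The widest gaps were -1.25 for Ubd, -1.08 for the dimmer probe set of Psmb8, and -0.64 and -0.56 for the probe sets of Tapbpl, all higher in replicate 2. Replicate 1 was the higher array in 8 of the 13, among them every probe set of Psmb9, Psmb10, Tap1, Tap2 and Tapbp. Of the probe sets of the table that were higher in co-culture, 28.6% had replicate 1 as the higher array.

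Of 95 other genes listed along the same path, 27 had a probe set annotated to them alone, and 68 were not analysed here. Of the 27, 22 were higher and 5 lower in co-culture, with a median difference of 1.30. Of 13 further subunits of the 20S barrel, 4 were in the table and all were higher: Psma1 by 1.30 ± 0.31, Psma7 by 0.79 ± 0.17, Psma5 by 0.67 ± 0.16 and Psma3 by 0.56 ± 0.16 (SE). Psma7 had values of 11.39 and 11.36 in co-culture, against 10.47, 10.60 and 10.69 in MSC alone, so replicate 3 was not low for this alpha-ring gene. It was the lowest array of MSC alone in 2 of the 4 subunit genes. Over the 27 path genes it was lowest in 14, beside 40.3% of all probe sets and 50% of those higher in co-culture. Of 25 genes of the 19S regulator, which recognises ubiquitin chains and unfolds substrates, and of other activators, 4 were higher and 2 lower. The higher ones included Psmd8 (1.38 ± 0.24), Psmd7 (1.05 ± 0.28) and Psmd4, a ubiquitin receptor (0.81 ± 0.19). Psmc6, an ATPase of the regulator's base, fell by 2.24 ± 0.41 (SE), with values of 7.39 and 6.18 in co-culture, against 8.87, 8.71 and 9.49 in MSC alone. Without co-culture replicate 1 Psmc6 fell by 2.84, and without co-culture replicate 2 it fell by 1.64. Psme4, the PA200 activator, fell by 0.77 ± 0.19 (SE). The 8 higher 20S and 19S genes thus differed by 0.56 to 1.38, below each of the 8 member genes represented by its brightest probe set, while the dimmer probe set of Tap1 (0.76) lay within that range.

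Pomp, the maturation factor of the proteasome and the only one of 5 assembly genes in the table, had values of 12.35 and 12.41 in co-culture, against 11.57, 11.47 and 10.79 in MSC alone. It differed by 1.11 ± 0.27 (SE), with MSC alone replicate 3 lowest as in most members. Of the 3 genes that conjugate or bind FAT10, Uba6, the enzyme that activates it, was in the table and fell by 0.78 ± 0.21 (SE), while its other probe set fell by 1.60. Uba6 had values of 8.48 and 8.09 in co-culture, against 9.06, 8.90 and 9.23 in MSC alone, and so moved opposite to Ubd. Of 5 genes of ISG15, another ubiquitin-like modifier, 4 had a probe set annotated to them alone and were higher. The protease gene Usp18 differed by 3.14 ± 0.33 and the ligase gene Herc6 by 2.96 ± 0.49 (SE). The conjugating enzyme gene Ube2l6 differed by 2.48 ± 0.26 and the activating enzyme gene Uba7 by 2.27 ± 0.37 (SE). A further probe set was annotated to Isg15 together with at least 1 other gene, and its values are not given here. Herc6 differed by 2.08 without co-culture replicate 1 and by 3.85 without co-culture replicate 2.

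Of 8 cytosolic and endoplasmic reticulum peptidases 2 were in the table. Erap1, which trims peptides in the endoplasmic reticulum before loading, had values of 10.11 and 9.63 in co-culture, against 7.74, 7.97 and 5.88 in MSC alone. It differed by 2.67 ± 0.63 (SE), and by 2.02 without MSC alone replicate 3. Tpp2, a cytosolic peptidase gene, fell by 0.93 ± 0.24 (SE). Of 8 chaperones of the endoplasmic reticulum, P4hb, a protein disulfide isomerase gene, was in the table and fell by 0.71 ± 0.18 (SE). Of 18 class I chain genes 4 had a probe set annotated to them alone, although those of H2-K1 and H2-D1 are of a type that can bind related transcripts. H2-K1 was higher by 1.93 ± 0.17, H2-D1 by 1.73 ± 0.17, H2-T24 by 1.33 ± 0.26 and the light chain gene B2m by 0.98 ± 0.17 (SE). In none of these 4 was MSC alone replicate 3 the lowest array. A further 5 probe sets of class I chains were annotated to several genes and are not named. Of 7 regulators of class I and interferon responses 4 were in the table and higher. The class I transactivator gene Nlrc5 differed by 3.03 ± 0.57 (2.17 without co-culture replicate 1 and 3.89 without co-culture replicate 2), and the transcription factor genes Stat2, Irf9 and Irf2 by 2.62 ± 0.17, 2.19 ± 0.21 and 1.55 ± 0.28 (SE).

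**Figure D4:**
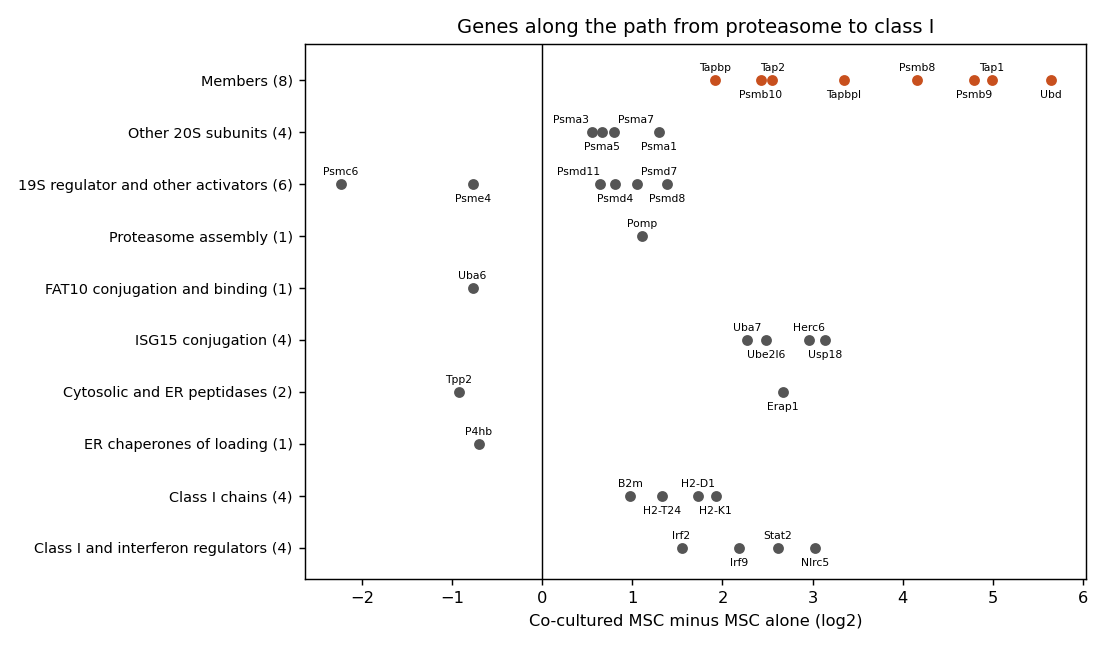
Differences between co-cultured MSC and MSC alone (log2) for the 8 member genes (orange) and 27 path genes with their own probe set (grey). Each gene is shown by its brightest probe set, with the number of genes in brackets. The members span 1.92 (Tapbp) to 5.65 (Ubd), the other 20S subunits 0.56 to 1.30, and the 5 genes left of 0 are Psmc6, Psme4, Uba6, Tpp2 and P4hb.

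The genes whose profile was most like that of the members were found by centring each gene on its mean over the 5 arrays and taking the root mean square distance from the mean profile of the 8 genes. The nearest was Slfn2, with a distance of 0.13 and values of 10.32 and 10.67 in co-culture, against 6.95, 7.09 and 5.77 in MSC alone. Ifit2 (0.20), Rnf19b (0.32), Ccl7 (0.33) and Xaf1 (0.36) followed. Among the members themselves the distance ran from 0.26 for Tapbpl to 1.09 for Ubd, so Slfn2 and Ifit2 lay nearer to the mean profile than any member did. The measure rests on 5 arrays of a table chosen on their grouping.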

How the data were processed

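RNA of MSC was measured on 5 Affymetrix arrays with biotinylated cRNA, per the labels' protocols. The authors summarised probe sets with RMA, and the deposited numbers are its log2 output, per the submitters' processing notes. The RMA version, and how the 3373 probe sets were chosen, are not given in the sources used here. Values were used as deposited, with 0 columns left unmatched to a sample.

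The platform's probe table gave 1 gene for 3013 probe sets, several for 69 and none for 291; 0 symbols changed on update through RefSeq (GRCm38.p6). Probe sets ending in _x_at or _s_at can bind related transcripts, so values of H2-K1, H2-D1, Irf2, Psmc6 and the dimmer Psmb8 probe set are uncertain. Where a gene had several probe sets, the one brightest on average stood for it.

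The test was limma 3.58.1 (R 4.3.3, two-sided, lmFit and eBayes without filter or covariates), adjusted by Benjamini-Hochberg over all 3373 probe sets. The code was run on simulated data with a common spread and no selection of probe sets. That run cannot vouch for p-values in a table chosen on the contrast. The number of arrays limits the precision, and a table chosen for separated groups makes errors small and differences large. The members, gene lists, motifs and alternatives were chosen with earlier results of these data known. Named genes are all members, up to 5 genes of a list, by absolute difference, and the 5 genes nearest to the members' profile. Marker genes are named where they were higher in co-culture, as the members were. The plot of the path shows every listed gene with a probe set annotated to it alone. Alternatives covered the moderation, the array scaling, a filter on dim probe sets, the number of tests, the probe set type, the choice of probe set, each array left out, and the replicate number as a block.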

Additional observations from a re-analysis of the deposited data

How the results depend on the processing

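All 13 member probe sets passed the threshold as higher in co-culture with all 5 arrays, beside 48.7% of the table. All 13 also passed with trended and robust moderation and with each array centred on its median, beside 48.7% in both settings. All tested members passed without the dimmest 25% of probe sets (9 tested, beside 48.6%). The same held without _s_at, _x_at and _a_at probe sets (10 tested, beside 47.5%). Without any 1 array of MSC alone all 13 passed, beside 45.6% to 48.7% of the table. Without moderation 12 of 13 passed, Tapbp (1421812_at) being lost, beside 47.6%. Most of the table passed in these settings in either direction, so passing is no result about a member. With p-values adjusted for 15 times the number of probe sets, 5 members passed, of Psmb8 (1444619_x_at), Psmb9, Tap1 (1416016_at), Tapbpl (1451544_at) and Ubd, among 205 higher (6.08% of the table) and 210 lower probe sets, 415 in all against 3373. Without 1 array the calls over the table were between 3116 and 3371, and the median difference of the 8 genes was between 3.14 and 4.13. This median was 3.92 with centred arrays, 2.71 with the mean of a gene's probe sets and 2.49 with the probe set of smallest difference, the last by construction. In the comparison of neighbours the values without 1 array ran from -0.017 (without MSC alone replicate 1) to 0.24 for Tap2 over Psmb10, from -0.015 to 1.32 for Ubd over Tap1 and from -0.018 to 0.41 for Tap1 over Psmb9, both lowest without co-culture replicate 2. They ran from 0.26 to 1.23 for Psmb9 over Psmb8, 0.41 to 1.18 for Psmb8 over Tapbpl, 0.41 to 1.17 for Tapbpl over Tap2 and 0.33 to 0.69 for Psmb10 over Tapbp. The replicate numbers, shared as 1 and 2 by both groups, are not stated to pair the cultures. Deviations from the group means correlated at 0.22 and 0.32 across probe sets for the same numbers. The deviations of 2 co-culture arrays mirror each other, so the crossed numbers gave -0.22 and -0.32 by construction. MSC alone replicate 3 correlated at 0.11 and -0.11 with co-culture replicates 1 and 2. These values do not settle whether the cultures were paired. With the replicate number as a block (replicate block) 3365 probe sets and 13 members passed, and the median was 3.14. Only MSC alone had a replicate 3, so the block absorbed that array, and the differences equal those without it. Without detection calls, the low values of Ubd, of the dimmer probe sets of Psmb8 and Tap1 and of Tapbpl (1424961_at) in MSC alone limit the precision of their folds.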
